A study of Mus musculus with 14 samples.

Results

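The genes described here are 9 complement genes of the mouse brain: C1qa, C1qb and C1qc, which encode the chains of C1q, then C3, C4b and Cfb, the receptor genes C3ar1 and C5ar1, and Serping1. They were taken by symbol from the 46904 genes of a table of RPKM values, read counts normalized for gene length and sequencing depth, and all 9 had reads in every library, so that none entered the test through 1 group alone. Whole brain hemispheres of 12-week-old male mice on a C57BL/6J background were profiled by RNA sequencing 48 h after a 20 min occlusion of the left middle cerebral artery (MCAO). Wild-type mice (Cort+/+) gave 3 contralateral (CL) and 3 ischemic (MCAO) libraries. Mice lacking the gene of the neuropeptide cortistatin (Cort-/-) gave 3 CL and 5 MCAO libraries. CL tissue came from operated animals, so the design holds no brain without surgery, and the labels do not tie CL to MCAO libraries of the same mouse.

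Complement is a cascade of plasma and locally made proteins that tags debris, synapses and microbes for removal. C1q starts the classical pathway, C4 and C3 are cleaved and attached to the target, factor B serves the alternative pathway that amplifies C3 cleavage, and C1 inhibitor, the product of Serping1, blocks the proteases bound to C1q. The small fragments C3a and C5a act on the receptors C3ar1 and C5ar1. In the brain microglia are the main source of C1q, while C3 and C4 are known products of reactive astrocytes among other cells.

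Depth ran from 25989856 to 43032666 reads on genes per library. Cort, the deleted gene, had 64 to 139 reads in each Cort+/+ library and 0 to 4 in each Cort-/- library. The CL libraries were not alike. Cort+/+ CL replicate 1 and Cort-/- CL replicate 2 held the 2 highest CL values for all 9 genes, and Gfap, an intermediate filament gene of reactive astrocytes, stood at 132 and 110 RPKM there against 37.9 to 55.4 in the other 4. Among the MCAO libraries Cort+/+ replicate 4 was lowest for 8 of the 9. Values without the 2 high CL libraries are given below as a description only: since these hold the highest CL values, leaving them out must raise MCAO over CL for each of the 9.

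The 3 C1q genes lie side by side on the minus strand of chromosome 4 in GRCm39, C1qb at chr4:136606009-136613511, C1qc at chr4:136616466-136620376 and C1qa at chr4:136623223-136626161, between 12.583 and 12.596 Mb from Cort. C4b (chr17:34947354-34962912), Cfb (chr17:35074852-35081559) and C3 (chr17:57510964-57535155) are on chromosome 17. C3ar1 is at chr6:122823393-122833122, C5ar1 at chr7:15980668-15993465 and Serping1 at chr2:84595705-84620873, all on the minus strand. RefSeq promoter windows (250 bases before the start, GRCm38.p6 table) were matched for 5 of the 9, C1qb, C1qc, C3, C3ar1 and C5ar1, and placed on GRCm39 by exact match. C1qa, C4b, Cfb and Serping1 have no entry. Because the C1q genes moved together across libraries, the C1qb and C1qc sequences are shown. That of C3ar1, which had the largest change in the main fit, is added. Only bases before every annotated transcript start are printed, 5′ to 3′ on the gene's strand. Capitals mark GAGGAA, a purine box of ETS family factors, on either strand (C1qb, C1qc) or TGANTCA, the AP-1 site (C3ar1). Other forms of ETS site were not searched.
C1qb, chr4:136613512-136613761: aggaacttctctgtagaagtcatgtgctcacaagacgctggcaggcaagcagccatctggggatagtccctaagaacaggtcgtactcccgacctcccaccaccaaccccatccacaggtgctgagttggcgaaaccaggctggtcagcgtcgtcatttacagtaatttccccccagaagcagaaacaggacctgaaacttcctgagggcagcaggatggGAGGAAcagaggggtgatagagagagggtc
C1qc, chr4:136620377-136620475: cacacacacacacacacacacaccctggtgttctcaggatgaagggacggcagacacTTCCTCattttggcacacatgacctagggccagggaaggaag
C3ar1, chr6:122833123-122833366: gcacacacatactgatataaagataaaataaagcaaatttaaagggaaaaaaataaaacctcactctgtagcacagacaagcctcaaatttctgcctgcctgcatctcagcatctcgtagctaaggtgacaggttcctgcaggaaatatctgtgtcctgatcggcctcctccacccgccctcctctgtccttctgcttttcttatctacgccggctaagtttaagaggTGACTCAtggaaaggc

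GAGGAA occurred in 2 of the 5 windows, those of C1qb and C1qc, and in 23.4% of 32536 RefSeq windows of the same length. In C1qb it begins 30 bases before the RefSeq start on the gene's strand, and in C1qc it lies 193 to 188 bases before the RefSeq start on the opposite strand. The canonical GENCODE start of C1qc is 151 bases upstream of that RefSeq start, so the match is nearer to the canonical start. In C1qb the 2 starts are the same. TGANTCA was found only in C3ar1 among the 5, from base 22 to base 16 before the start, and in 6.73% of all windows. TTNNGCAA (C/EBP) was found only in C3, and in 9.57% of all windows, whereas TTCNNNGAA (STAT) was in none of the 5 and in 7.04% of all windows. Both strands were searched, and the marked matches share no bases with another motif. These letters describe the windows and are not measured binding.

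C1q transcripts were the most abundant of the 9 and were higher in the ischemic hemisphere. C1qa stood at 57.1, 36 and 37.4 RPKM in Cort+/+ CL replicates 1 to 3, and at 101, 121 and 56.6 in Cort+/+ MCAO replicates 2 to 4. In Cort-/- mice C1qa was 39.1, 54.7 and 41.5 RPKM in CL and 163, 96.9, 72.5, 143 and 111 RPKM in MCAO. The Cort-/- groups did not overlap, while in Cort+/+ the lowest MCAO library fell just under the highest CL library. Over both genotypes C1qa was 2.29-fold higher in MCAO (log2 fold change 1.19, SE 0.21, limma adjusted p = 0.00812). A gene is called here where this p, adjusted over all genes tested, is under 0.05. All fold changes are on the log2(RPKM + 0.1) scale, which understates those of low genes. In bulk tissue, more cells of a type and more RNA per cell cannot be told apart.

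C1qb and C1qc followed the same course. C1qb measured 53.9, 35.8 and 35.9 RPKM in Cort+/+ CL, 90.3, 127 and 55.7 in Cort+/+ MCAO, 36.5, 48.8 and 36.6 in Cort-/- CL and 144, 88.8, 69.1, 134 and 105 in Cort-/- MCAO. C1qc measured 42.9, 26.2 and 27.5 RPKM in Cort+/+ CL, 79.7, 103 and 46.7 in Cort+/+ MCAO, 30.8, 43.2 and 34.6 in Cort-/- CL and 130, 82.5, 60, 119 and 92.9 in Cort-/- MCAO. For both genes all 8 MCAO libraries lay above all 6 CL libraries. C1qb rose 2.33-fold (adjusted p = 0.00651) and C1qc 2.45-fold (adjusted p = 0.0058) over both genotypes. The chains kept nearly the same proportions throughout: C1qa made up 34.5% to 37.3% of their summed RPKM, C1qb 32.5% to 36.5% and C1qc 26.7% to 30.8%. The 3 Cort+/+ CL libraries had the 3 lowest C1qc shares (26.7%, 27.3% and 27.9%), and the other 11 ranged from 28.9% to 30.8%. Shares taken over summed RPKM are per length and depend on the gene models counted.

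**Figure D1:**
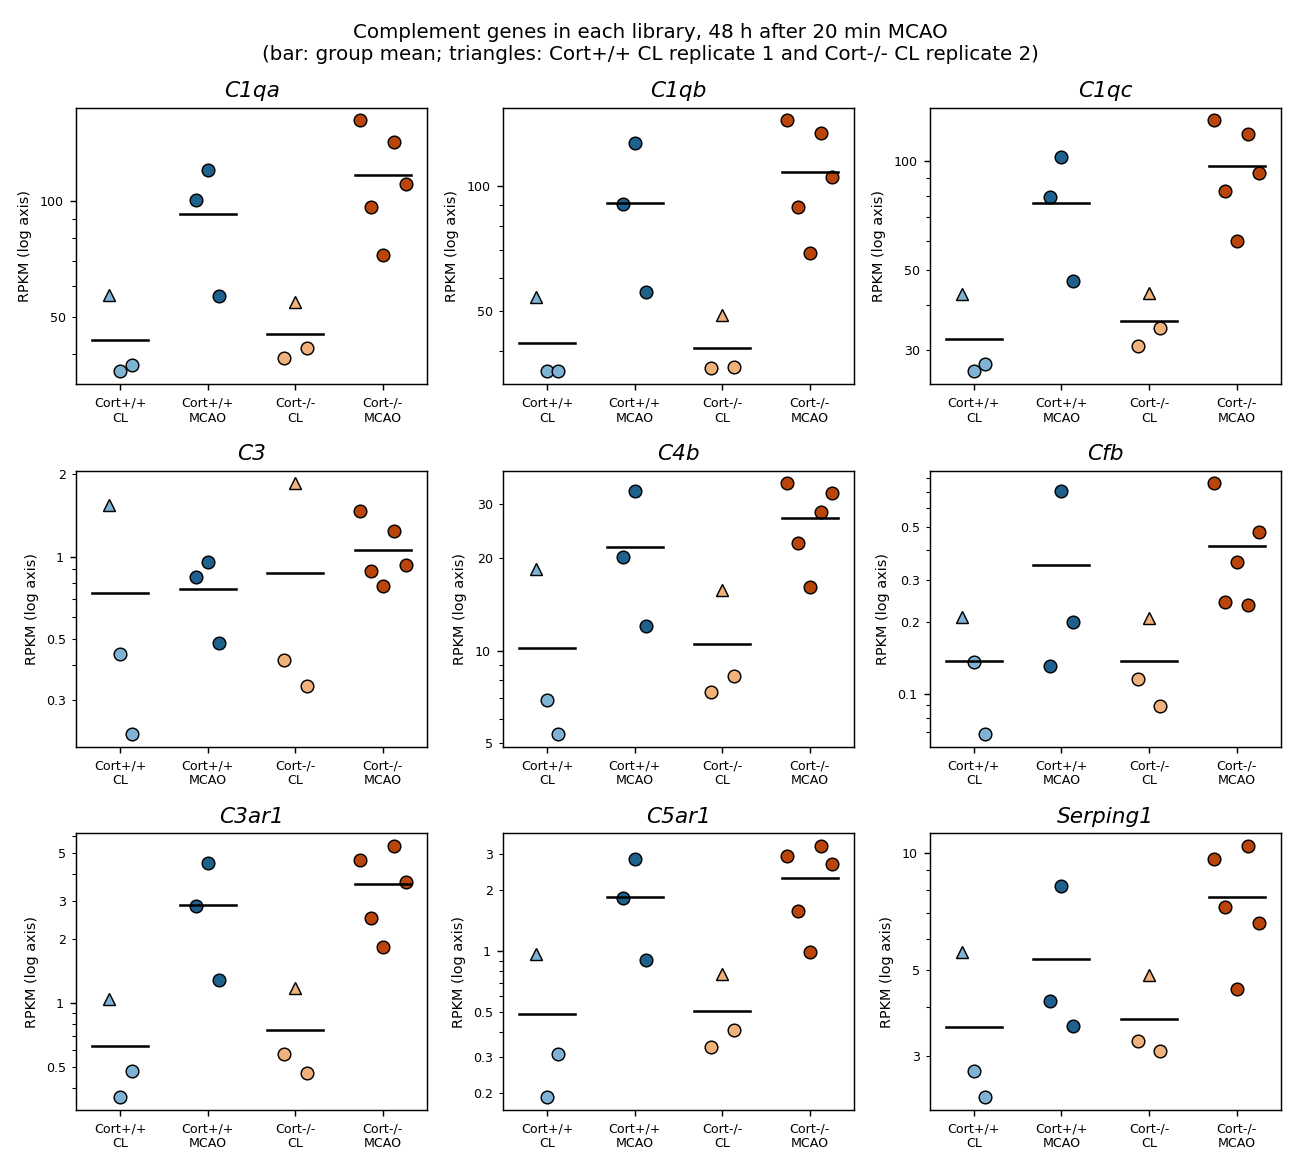
RPKM (log axis) of the 9 complement genes in each of the 14 libraries, by genotype and hemisphere; points are libraries, bars are group means, and triangles mark Cort+/+ CL replicate 1 and Cort-/- CL replicate 2. For C1qb, C1qc and C3ar1 all 8 MCAO points lie above all 6 CL points, and for C3 both triangles lie above every MCAO point.

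C4b, which encodes the C4 protein that links C1q to C3 cleavage, was the next most abundant. It reached 18.4, 6.89 and 5.34 RPKM in Cort+/+ CL and 20.2, 33.1 and 12 in Cort+/+ MCAO. The Cort-/- values were 7.34, 15.8 and 8.29 RPKM in CL and 35.1, 22.4, 16.1, 28.3 and 32.7 in MCAO. The high CL values were those of the 2 libraries already named, and 6 of 8 MCAO libraries exceeded them all. Over both genotypes C4b was 2.43-fold higher in MCAO (log2 fold change 1.28, SE 0.32, adjusted p = 0.0451). This call was close to the threshold, and it was lost with a pseudocount of 1 (adjusted p = 0.0536) and on leaving out any 1 library (adjusted p up to 0.12) other than Cort+/+ CL replicate 1, Cort+/+ MCAO replicate 4, Cort-/- CL replicate 2 or Cort-/- MCAO replicate 3. Without the 2 high CL libraries it was 3.28-fold. Its near-identical neighbour C4a, at 0.463 to 0.855 RPKM, had a log2 fold change of -0.06 (adjusted p = 0.917), and how reads shared by the copies were assigned is uncertain.

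C3, the central component, was low and its CL values were widely spread. Its levels were 1.54, 0.439 and 0.224 RPKM in Cort+/+ CL and 0.845, 0.954 and 0.484 in Cort+/+ MCAO. Cort-/- mice had 0.418, 1.86 and 0.337 RPKM in CL and 1.47, 0.883, 0.781, 1.24 and 0.929 in MCAO. The highest C3 value of all 14 libraries was thus in a CL hemisphere, and the 4 other CL libraries lay below all 8 MCAO libraries. With every library the log2 fold change over both genotypes was 0.46 (SE 0.4, adjusted p = 0.676). Without the 2 high CL libraries, which for C3 are also the only CL libraries above any MCAO library, it was 1.13 (SE 0.22). The number of reads behind C3 was 43 to 329 per library.

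Cfb, factor B of the alternative pathway, was the lowest of the 9 with 7 to 91 reads per library. It stood at 0.21, 0.137 and 0.0682 RPKM in Cort+/+ CL, 0.131, 0.703 and 0.2 in Cort+/+ MCAO, 0.116, 0.208 and 0.0898 in Cort-/- CL and 0.76, 0.243, 0.358, 0.235 and 0.474 in Cort-/- MCAO. The groups separated in Cort-/- mice but not in Cort+/+ mice. The log2 fold change over both genotypes was 0.89 (SE 0.31), and it did not pass the test (adjusted p = 0.179). In the annotation Cfb overlaps Nelfe on the other strand and a readthrough gene on its own, so reads of these genes may not be fully separate.

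The anaphylatoxin receptors showed the largest changes. C3ar1 had 1.04, 0.363 and 0.479 RPKM in Cort+/+ CL, 2.84, 4.49 and 1.28 in Cort+/+ MCAO, 0.579, 1.18 and 0.473 in Cort-/- CL and 4.64, 2.49, 1.82, 5.41 and 3.68 in Cort-/- MCAO. C5ar1 had 0.965, 0.191 and 0.313 RPKM in Cort+/+ CL, 1.82, 2.85 and 0.905 in Cort+/+ MCAO, 0.339, 0.772 and 0.409 in Cort-/- CL and 2.95, 1.58, 0.987, 3.3 and 2.68 in Cort-/- MCAO. Every MCAO library exceeded every CL library for C3ar1, and 7 of 8 did for C5ar1. Over both genotypes C3ar1 rose 4.14-fold (log2 fold change 2.05, SE 0.34, adjusted p = 0.00587) and C5ar1 3.68-fold (log2 fold change 1.88, SE 0.36, adjusted p = 0.013). Both calls were kept in all 25 alternative settings, but the size of the change was not. The log2 fold change of C3ar1 fell as low as 1.27 there. That of C5ar1 fell as low as 1.0, while no C1q chain fell below 1.08 in any setting. Neither low receptor value came from leaving out a single library, where C3ar1 ranged from 1.85 to 2.28 and C5ar1 from 1.68 to 2.15. The ratio of C3ar1 to C5ar1 RPKM had a median of 1.53 in CL and 1.57 in MCAO, with ranges of 1.07 to 1.9 and 1.37 to 1.84.

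Serping1, the C1 inhibitor, was present at 5.56, 2.75 and 2.35 RPKM in Cort+/+ CL and 4.15, 8.22 and 3.58 in Cort+/+ MCAO. Cort-/- mice had 3.27, 4.86 and 3.09 RPKM in CL and 9.64, 7.26, 4.46, 10.4 and 6.59 in MCAO. The groups overlapped in both genotypes. The log2 fold change over both genotypes was 0.78 (SE 0.26), which did not pass the test (adjusted p = 0.139). It was 1.06 without the 2 high CL libraries.

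The order of the levels also shifted between hemispheres. In CL tissue mean RPKM fell from C1qa (44.3 ± 9.18, SD, n = 6) through C1qb (41.2 ± 7.97), C1qc (34.2 ± 7.46), C4b (10.3 ± 5.38), Serping1 (3.65 ± 1.27), C3 (0.803 ± 0.707), C3ar1 (0.685 ± 0.338) and C5ar1 (0.498 ± 0.302) to Cfb (0.138 ± 0.0596). Within libraries this order held for every pair of neighbours in all 6 CL libraries, except that C3 was above C3ar1 in 3 of 6. In MCAO tissue C3ar1 (3.33 ± 1.46, SD, n = 8) and C5ar1 (2.13 ± 0.931) stood above C3 (0.948 ± 0.296), while the C1q chains, C4b and Serping1 kept their places, C1qa being above C1qb in 7 of 8 libraries. In each MCAO library C3 was below both C3ar1 and C5ar1.

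Counted over the 9 genes, 6 were called higher in MCAO over both genotypes, the 3 C1q chains, C4b, C3ar1 and C5ar1, where 2.52% of the 46102 genes tested were called in that direction. The median log2 fold change was 1.22 for the 9 and 0.00 for all genes. In Cort-/- mice alone 4 were called, the C1q chains (log2 fold change 1.34, 1.37 and 1.38, adjusted p 0.0277 to 0.034) and C3ar1 (2.12, adjusted p = 0.0343), against 1.34% of all genes. That count varied between fits, as did the share of all genes called, though not in the same order throughout. It was 0 when only the Cort-/- groups were fitted (0.132% of all genes), and 0 without Cort-/- CL replicate 1 or 3 or MCAO replicate 1, 4 or 5 (0.180% to 0.586%). It was 1 without Cort-/- CL replicate 2 (0.535%), and 6 by limma voom on reads recovered from the RPKM values (2.61%). In Cort+/+ mice 0 of 9 passed, where 0.00868% of all genes did, while before adjustment 6 of the 9 had p under 0.05, against 7.87% of all genes, and all 9 had a positive log2 fold change (0.34 to 1.98), against 49.1% of all genes. With all libraries 3 genes, C1qb, C1qc and C3ar1, had every MCAO library above every CL library over both genotypes, a pattern held by 1.72% of all genes. Within Cort+/+ mice the same held for these 3 (5.73% of all genes), and within Cort-/- mice for 7 of 9, all but C3 and Serping1 (4.85% of all genes).

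**Figure D2:**
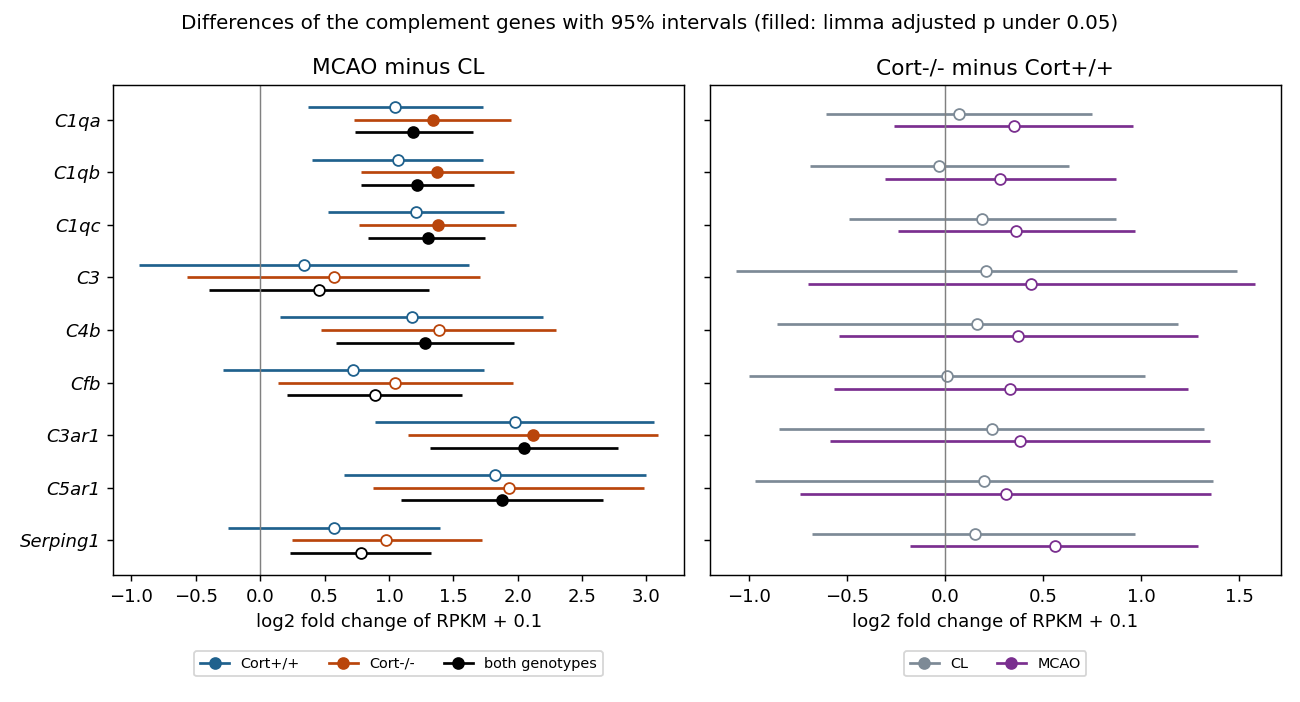
Log2 fold change of RPKM + 0.1 with 95% intervals for the 9 complement genes, MCAO minus CL at left (Cort+/+, Cort-/- and both genotypes) and Cort-/- minus Cort+/+ at right (CL and MCAO); filled points have a limma adjusted p under 0.05. At left 6 genes are filled over both genotypes and 4 in Cort-/-, and at right every interval includes 0.

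The study asked whether loss of cortistatin alters the response to ischemia, and none of the 9 genes differed between genotypes by limma. In CL tissue the log2 difference, Cort-/- minus Cort+/+, ran from -0.03 (C1qb) to 0.24 (C3ar1), with 0 of 9 called, 0 of 9 at an unadjusted p under 0.05 and 0.0152% of all genes called. In MCAO tissue it was positive for all 9, from 0.28 (C1qb) to 0.56 (Serping1), again with 0 of 9 called or under an unadjusted p of 0.05 (0.0174% of all genes called). Voom called 0 of 9 in both as well. The intervals leave room for sizeable differences: for C1qa in MCAO from -0.26 to 0.96, for C3 from -0.7 to 1.58 and for C3ar1 from -0.59 to 1.35 on the log2 scale. Cort+/+ MCAO replicate 4 is the lowest MCAO library for 8 of the 9, so leaving it out must lower the difference of these. Without it the difference ran from -0.11 (C5ar1) to 0.33 (Serping1) and was below 0 for C1qb, C3ar1 and C5ar1. Over all single libraries left out, 5 of 9 genes stayed above 0 throughout, and the highest values were 0.56 to 0.91. The difference of the MCAO response between genotypes was also tested directly. This interaction was positive for all 9 (log2 0.11 to 0.41), called for 0 of 9 with 0 at an unadjusted p under 0.05, and called for 0.00217% of all genes.

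Leaving out Cort+/+ CL replicate 1 and Cort-/- CL replicate 2 shows how much of each value rests on them. These libraries were picked after seeing that they held the highest CL values of all 9 genes, so the direction of the shift and any call gained were fixed by that choice and test nothing. The shift of the log2 fold change over both genotypes was greatest for C3, from 0.46 to 1.13, and smallest for the C1q chains, among them C1qb, from 1.22 to 1.39. Refitted without them, 8 of 9 genes had an adjusted p under 0.05 over both genotypes (2.14% of the genes tested), 1 did in Cort-/- mice (0.459%) and 0 in Cort+/+ mice (0.0421%), counts that are no evidence of a difference for the genes gained.

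**Figure D3:**
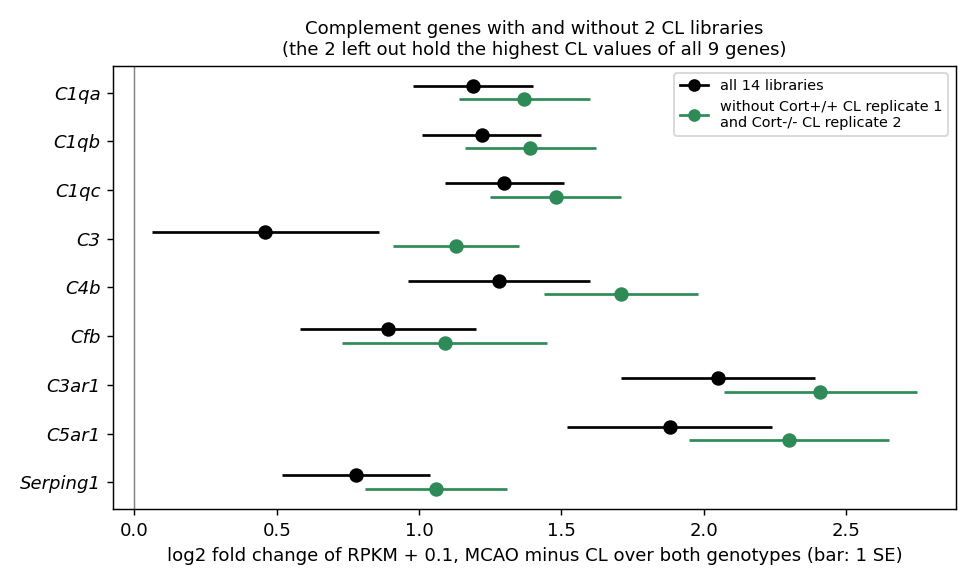
Log2 fold change of RPKM + 0.1 (MCAO minus CL over both genotypes, bar 1 SE) of the 9 complement genes with all 14 libraries (black) and without Cort+/+ CL replicate 1 and Cort-/- CL replicate 2 (green). All 9 green points lie to the right of the black ones, as the choice of the libraries fixes, and C3 moves from 0.46 to 1.13.

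Myeloid markers moved with the C1q genes. All 8 microglia markers used had a positive log2 fold change over both genotypes and a limma unadjusted p under 0.05, with a median of 0.65. Of these 6 were called (Csf1r, Cx3cr1, Gpr34, Olfml3, Sall1 and Tmem119, not P2ry12 or Siglech). All 8 markers of myeloid activation were called higher, with a median log2 fold change of 1.71. The summed level of the microglia list was 56.9 to 64.6 RPKM in the CL libraries and 73.7 to 115 in the MCAO libraries, and no marker of it was at 0. The summed C1q level was 98 to 154 RPKM in CL and 159 to 437 in MCAO. Relative to the microglia sum, C1q was 1.63 to 2.7 in CL and 2.16 to 3.94 in MCAO, which overlapped only through Cort+/+ CL replicate 1 and Cort-/- CL replicate 2. Relative to the activation sum it was 2.28 to 2.6 in CL and 1.23 to 1.74 in MCAO, without overlap. No test of these ratios was made. The part of cell number in these values was not tested.

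**Figure D4:**
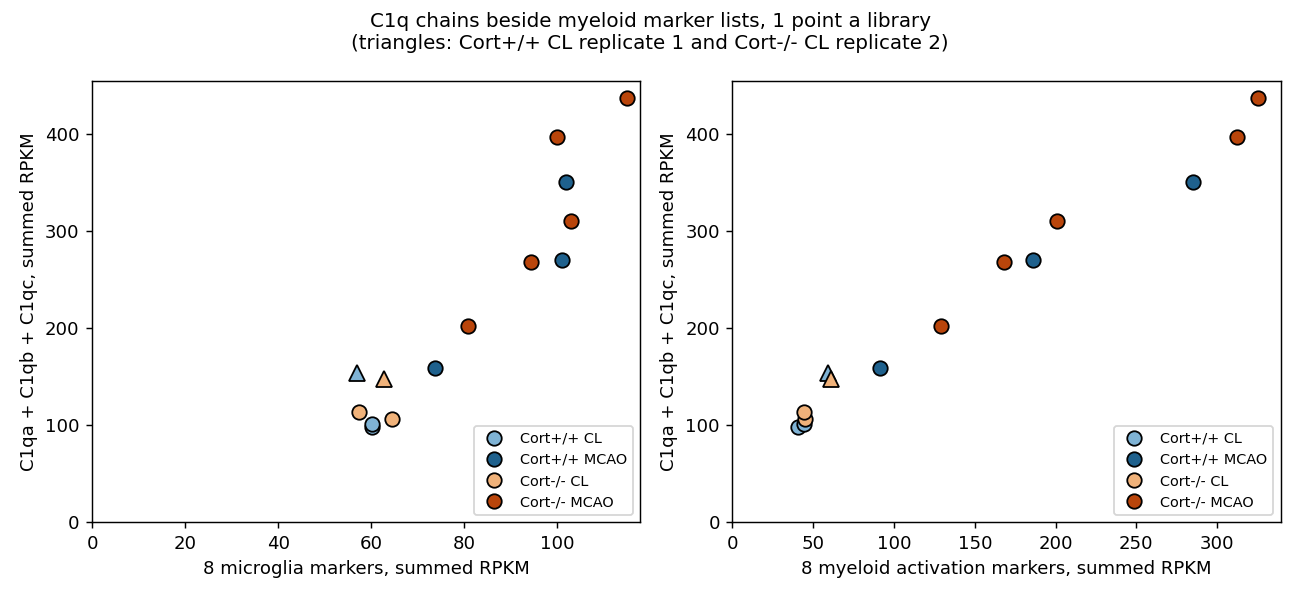
Summed RPKM of C1qa, C1qb and C1qc in each of the 14 libraries against the summed RPKM of 8 microglia markers (left) and of 8 myeloid activation markers (right), with linear axes from 0. The CL libraries lie at 98 to 154 RPKM of C1q and the MCAO libraries at 159 to 437, and the libraries marked by triangles are the highest CL points.

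Markers of other cells also moved. Among 8 monocyte and macrophage markers F10, Fn1 and Plac8 were called higher, and all 8 had a positive log2 fold change (median 0.80). The list summed to 8.74 to 13.3 RPKM in CL and 12.3 to 25.8 in MCAO. Of 8 neutrophil markers 0 passed (median log2 fold change 0.06), and their sum was 2.46 to 9.78 RPKM in CL and 2.45 to 15.9 in MCAO. Of 6 markers of border associated macrophages 0 passed, with sums of 2.11 to 4.77 and 2.74 to 10 RPKM. None of these markers was at 0 in every library of a group. Among 8 astrocyte markers Gfap (log2 fold change 1.84, adjusted p = 0.00842), Aqp4 and Aldh1l1 were called higher, while the median of the list was 0.00 and 4 of the 8 were above 0. Cdh5 and Cldn5 were called higher among 8 endothelial markers (median 0.26), and Dcn among 6 fibroblast markers (median 0.44). Every marker of these 2 lists had a positive log2 fold change. The part of these cells in the complement values was not tested. The ratio of C4b to Gfap, computed after their values were seen, was 0.139 to 0.161 in all 6 CL libraries, the 2 high ones included, and 0.0815 to 0.114 in the MCAO libraries.

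For each complement gene the 3 non-member genes of most similar pattern were sought among 15056 genes whose mean over the libraries reached 1 RPKM, by the root mean square (RMS) difference of log2 values centred on each gene's mean over the 14 libraries. For C1qa these were Spi1 (RMS 0.0707), Ccl6 (0.0922) and Ctsz (0.0976), for C1qb Spi1 (0.0632), Ccl6 (0.0891) and P2ry6 (0.0901), and for C1qc Rac2, Spi1 (both 0.0992) and Arpc1b (0.111). The median over all genes ranked was 0.75 to 0.798 for the C1q chains, and the chains differed from each other by 0.0681 to 0.102. C3ar1 was nearest to Capg (0.166), Slc15a3 (0.167) and Tlr2 (0.208), and C5ar1 to Tlr2 (0.165), Gfap (0.201) and Slamf9 (0.203). The receptors differed from each other by 0.191. C4b was nearest to Ncf1, Cd48 (both 0.209) and Fcgr2b (0.211), and Serping1 to Il4ra (0.154), Pros1 (0.183) and Col5a3 (0.196). C3 and Cfb had no close neighbour: the smallest RMS was 0.399 for C3, shared by Ugt1a1, Ugt1a8 and Ugt1a9, overlapping models of 1 locus, and 0.345, 0.355 and 0.36 for Cfb (H2-Aa, Plscr2 and Pld4). These values describe 14 libraries that share the ischemic contrast.

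Other genes of the complement system were counted by the same test. Of 51 other complement genes listed, 48 were in the table and all 48 were tested. Over both genotypes 5 were called higher (10.4%, against 2.52% of all genes tested) and 0 lower, with a median log2 fold change of 0.09. In Cort-/- mice 4 were called higher (8.33%, against 1.34% of all genes). In Cort+/+ mice 0 were (0.00868% of all genes), where 6 of the 48 reached a limma unadjusted p under 0.05, as did 7.87% of all genes. For 15 of the 48 the mean was under 0.1 RPKM, the pseudocount, which holds their log2 fold changes near 0 and enters this median. The 9 genes were chosen with earlier results known, so their median is not set against it. The genes that rose over both genotypes included all 3 integrin genes of complement receptors CR3 and CR4, which bind fragments of C3: Itgam (log2 fold change 1.11, adjusted p = 0.00143), Itgax (1.73, adjusted p = 0.000988) and Itgb2 (1.30, adjusted p = 0.00473). Itgam ran from 3.5 to 4.22 RPKM in CL and from 5.38 to 12 in MCAO, without overlap, and in Cort-/- mice all 3 were called (adjusted p 0.00887 to 0.0222).

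By role, the classical proteases and C2 gave 1 call of 7, C1rl (0.90, adjusted p = 0.0159), while C1ra, the most abundant of them, had a log2 fold change of 0.56 (adjusted p = 0.181) at 0.62 to 2.03 RPKM. The lectin pathway gave 1 of 8, Fcna, a ficolin gene (1.03, adjusted p = 0.0449), with Masp1, its most abundant gene, at 0.20 (adjusted p = 0.209). The Fcna call was close to the threshold and rested on few reads. Fcna ran from 0.021 to 0.317 RPKM in CL (1 to 15 reads) and 0.303 to 0.687 in MCAO (11 to 41 reads), with overlap. Of the other receptors, Cd93 was called only in the Cort-/- contrast (1.03, adjusted p = 0.034) and had 0.63 (adjusted p = 0.0524) over both genotypes. Cd93 was lower in Cort-/- CL (0.689 to 0.864 RPKM) than in every Cort+/+ CL library (1.13 to 1.28), a log2 difference of -0.57 (limma unadjusted p = 0.0362, adjusted p = 1), while in MCAO the difference of Cd93 was 0.22. Other genes of this list also separated the genotypes in CL, among them C1rl (higher in Cort-/-) and Cd59b (lower). The share of all genes with such a separation was not counted. The difference of the Cd93 response between genotypes was 0.78 on the log2 scale and did not pass the test (limma unadjusted p = 0.0313, adjusted p = 1). The 3 genes of the alternative pathway and C5 (Cfp, properdin, the most abundant at -0.10), the 6 of the terminal pathway (C8g at 0.06) and the 16 regulators (Clu, clusterin, at 0.11) gave 0 calls, with 0, 0 and 4 of them at an unadjusted p under 0.05. The pentraxin gene Ptx3 had a log2 fold change of 1.58 (adjusted p = 0.0583). Between genotypes 0 of the 48 were called in CL or in MCAO.

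**Figure D5:**
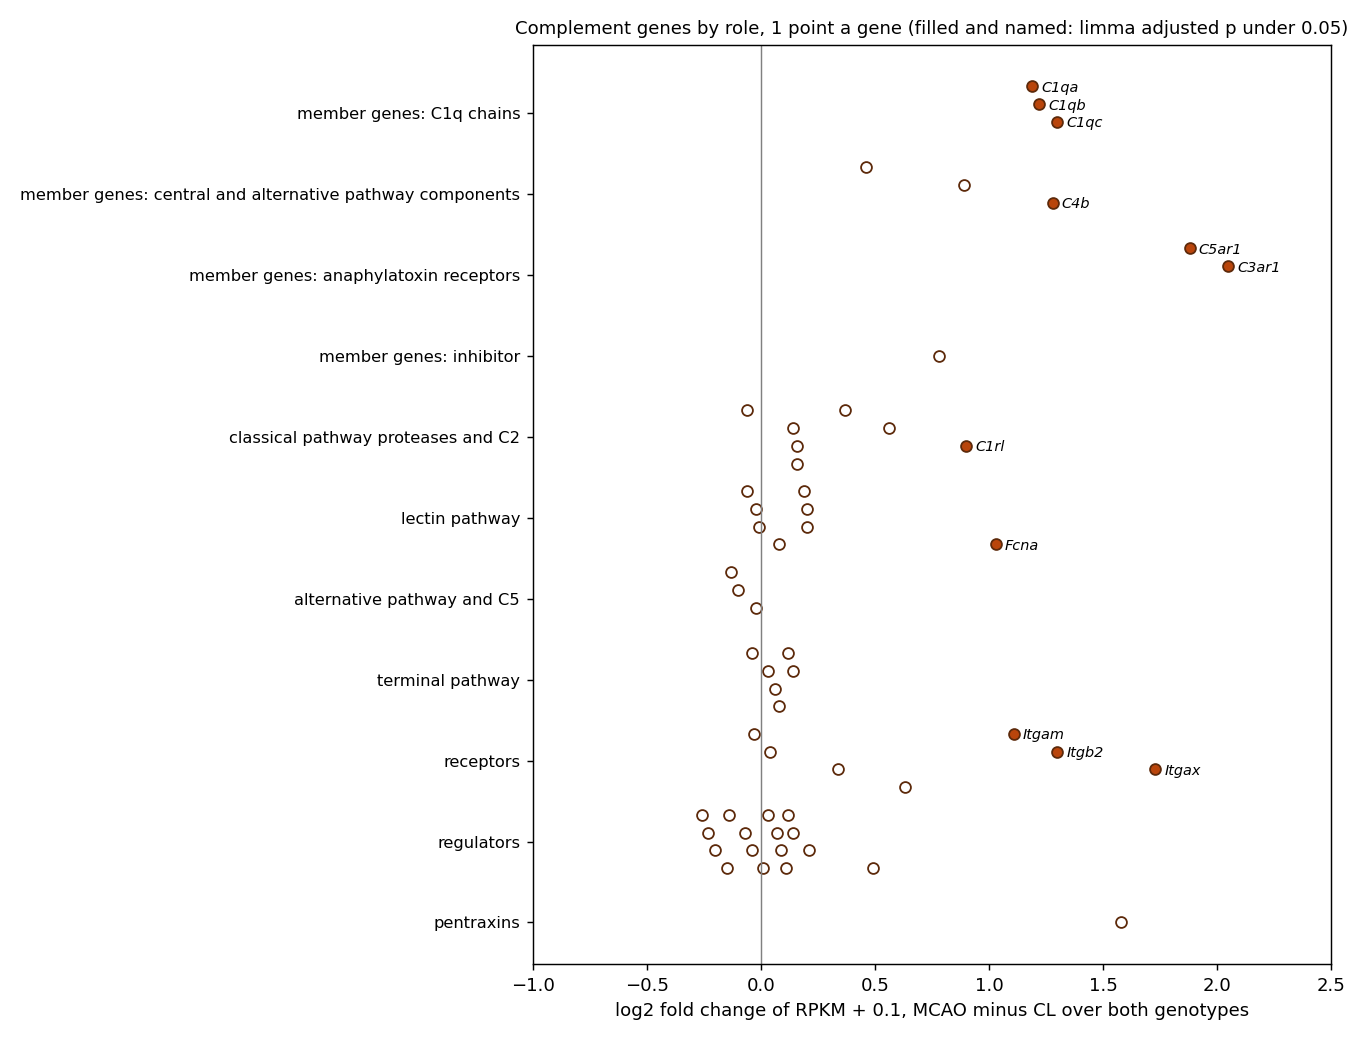
Log2 fold change of RPKM + 0.1 (MCAO minus CL over both genotypes) of the 9 complement genes and the 48 other complement genes tested, by role, 1 point a gene; filled, named points have a limma adjusted p under 0.05. The 11 named genes lie between 0.90 and 2.05, and the terminal pathway, alternative pathway and regulators have no named gene.

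Masp2, the lectin pathway protease gene, was singled out after its values were seen. It stood at 0.111 to 0.425 RPKM in the 6 Cort+/+ libraries and 0.801 to 1.28 in the 8 Cort-/- libraries, without overlap. The log2 difference, Cort-/- minus Cort+/+, was 1.92 in CL (SE 0.29, adjusted p = 0.0816) and 1.47 in MCAO (SE 0.26, adjusted p = 0.202), neither past the threshold over all genes. Masp2 lies on chromosome 4, 0.509 Mb from Cort, and overlaps Tardbp on the other strand. None of the 9 complement genes showed such a separation of genotypes.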

How the data were processed

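Per the labels and methods, hemisphere RNA was made into stranded mRNA libraries, read as 100-base pairs on an MGI sequencer, and aligned to GRCm39 with GENCODE M28 genes by the authors' pipeline. The authors deposited RPKM. Replicates standing apart from their group could be dropped from a comparison by the authors. For Cort+/+ MCAO, replicates 2 to 4 are analysed here. Whether counting used strand is not given in the sources used here. Whole reads were recovered from the RPKM steps for 495656 of 495656 values above 0 (tolerance 0.02 reads).

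Genes above 0 in at least 2 libraries (46102 of 46904) were fitted with limma 3.58.1 (trend, R 4.3.3) on log2(RPKM + 0.1), all 4 groups in 1 model, with Benjamini-Hochberg adjusted p under 0.05 over all genes taken as a call. The main fit used the deposited RPKM, and the edgeR test of the study was not run on these or on the recovered reads. The fit was tested on simulated data. Alternatives were pseudocounts of 1 and 0.01, a mean of at least 0.5 RPKM or no filter, TPM, median ratio and quantile scaling, library weights, a replicate block, only the groups compared, limma voom on recovered reads and leaving out each library. The members and lists were chosen with earlier results of these data known. Named genes were all 9 members, other complement genes called in any contrast or most abundant in their role, and the 3 nearest genes by pattern. No 2 libraries of a group were duplicates: chi-square per degree of freedom over genes was 5.82 to 26.3 in 19 pairs. Replicates are independent biological ones per the labels. An interferon regulatory factor motif was also searched in the promoter windows, was found in none of those printed, and is not reported further. A microglia marker of the fixed list is not reported here, and the list's counts and sums were computed without it. Gene positions are from GENCODE M39.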

Additional observations from a re-analysis of the deposited data

Results flagged for a closer look

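No value of the 9 complement genes met the rules for a closer look. In the Cort-/- MCAO group, the only group of more than 3 libraries, the largest gap of an extreme library was 0.545 of the range, below Dixon's 95% critical value of 0.71, over 9 genes tested. No interaction of genotype and MCAO was called among the 9 by limma, with 0 of 9 at an unadjusted p under 0.05. Groups of 3 libraries, among them both CL groups, were not tested in this way.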

How the results depend on the processing

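Over both genotypes 5 to 7 of the 9 genes were called on leaving out any 1 library. In those fits 1.65% to 3.14% of all genes were called higher in MCAO. The count was 8 without both high CL libraries (2.14% of all genes), a choice that favours such calls. It was 6 with the replicate block (2.49%), whose estimated correlation was -0.005. The labels give CL and MCAO libraries shared replicate numbers. The correlation r of their deviations was -0.24 to 0.32 for same-numbered libraries and -0.32 to 0.40 for differently numbered ones of a genotype. The numbers were therefore not taken as pairs. The block changed no call among the 9, while over all genes the calls over both genotypes went from 1579 to 1552. With a correlation so near 0 the block nearly repeats the main fit, so it does not test pairing. In Cort-/- mice the count of 4 became 0 with only the groups compared, and ranged from 0 to 5 on leaving out libraries. The calls over all genes, in either direction, went from 792 to 86 and to between 133 and 1191. Fewer samples are fitted in each of these, and the cause of the changes was not tested. In Cort+/+ mice, between genotypes and for the interaction the count of the 9 called was 0 in every setting run.

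Of 1380 single fold changes refitted, 1278 kept direction and call, 43 lost the call, 10 gained it and 49 changed sign, all of the latter uncalled. On leaving out libraries the log2 fold change of C3 in Cort+/+ mice ranged from -0.17 to 1.0. The Cort-/- minus Cort+/+ difference in CL ranged from -0.08 to 0.28 for C1qa, -0.17 to 0.17 for C1qb, -0.47 to 0.87 for C3, -0.19 to 0.69 for C4b, -0.22 to 0.22 for Cfb, -0.11 to 0.62 for C3ar1, -0.19 to 0.74 for C5ar1 and -0.09 to 0.51 for Serping1. In MCAO it ranged from -0.04 to 0.56 for C1qb, -0.03 to 0.87 for Cfb, -0.09 to 0.78 for C3ar1 and -0.11 to 0.67 for C5ar1. The interaction ranged from -0.03 to 0.51 for C1qa, -0.01 to 0.59 for C1qb, -0.14 to 0.43 for C1qc, -0.43 to 0.91 for C3, -0.32 to 0.57 for C4b, -0.04 to 0.86 for Cfb, -0.33 to 0.54 for C3ar1 and -0.43 to 0.5 for C5ar1. In CL the difference was 0.03 for C1qb after rescaling to TPM and -0.0003 for Cfb with a pseudocount of 1. The cause was not tested. Depth limits Cfb, C5ar1 and C3, which had the lowest read numbers per library, at 7 to 91, 17 to 354 and 43 to 329.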
